A study of Rattus rattus with 18 samples.

Results

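*Hmox1* (ENSRNOG00000014117) and *Hspb1* (ENSRNOG00000023546) are stress protection genes, and their counts were read by identifier from every count table of the rat arcuate nucleus (ARC) at hand. They are 2 of 32883 genes counted in 18 libraries. The question was whether these genes differ between diet, running and miR-211 groups, and whether both are high in the same animals. Both symbols come from the gene lists of the study, in which *Hmox1* stands for both experiments and *Hspb1* for the diet and running experiment. The study drew those lists from these animals, so the choice of both genes is not independent of the values below.

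The diet-induced obesity (DIO) and voluntary running experiment gave 3 chow-sedentary (CS), 3 high-fat sedentary (HFS) and 4 high-fat running (HFR) libraries. These female rats ate chow or a 60% high-fat diet from postnatal day 21 to the end of the experiment, and from day 90 spent 4 weeks housed singly, with a wheel only for HFR. The miR-211 experiment gave 4 libraries each from chow-fed female rats infused with a miR-211 mimic or a hairpin inhibitor of miR-211, at 1 μg/μL in 2.5 μL through a cannula in the third ventricle. A mimic is a synthetic copy of the microRNA, and a hairpin inhibitor is an oligonucleotide that binds it. The latter rats arrived at postnatal day 60, recovered from surgery for 10 to 14 days, were fasted overnight and were killed 6 h after infusion. Rats are called Wistar in the study's methods and "WSH" in the labels, no transgene or mutation is stated for any group. The running experiment was repeated with new rats, and the labels do not tell which repeat a library came from, so repeat and group cannot be told apart. Chow-running rats and rats given a control oligonucleotide are not analysed here, so mimic and inhibitor are compared only with each other.

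Heme oxygenase 1, the product of *Hmox1*, cuts heme into biliverdin, carbon monoxide and free iron, and the gene is switched on by the transcription factor Nrf2 when oxidants or electrophiles build up and the repressor Bach1 is released. *Hspb1* encodes a small heat shock protein that holds unfolding proteins without using ATP and steadies the actin skeleton, and heat shock factor 1 drives the gene. In the brain both are known as inducible genes that are low in resting tissue and appear in glia, macrophages and vessels after injury, hemorrhage or inflammation.

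Each DIO library held between 4680736 and 7494207 counts on genes, and each miR-211 library between 1275263 and 6615927. Counts of *Hmox1* ranged from 57 to 202 and from 59 to 1715, and those of *Hspb1* from 146 to 1401 and from 351 to 6865, so counting error (a coefficient of variation of 1.2% to 13.2%) was smaller than most differences between animals. Arcuate markers (*Pomc*, *Ghrh*, *Tbx3* and *Nkx2-1*) were counted in every library, but their summed level ran from 81.0 to 1247.5 CPM (counts scaled to a common library total). Whether these markers or the content of the punches varied cannot be told apart here. CS replicate 2 and HFS replicate 2 matched no animal in the study's own per-animal values, whereas the other 8 DIO libraries and all 8 miR-211 libraries did. The differences, spreads, ratios and gene lists of the DIO experiment are therefore also given for the 8 matched libraries.

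In the DIO experiment *Hmox1* was low and its groups overlapped. It stood at 18.2, 20.1 and 12.2 CPM in CS, at 34.8, 17.8 and 16.8 CPM in HFS, and at 11.8, 13.8, 20.03 and 18.9 CPM in HFR (replicates in order). HFS replicate 1 was the only library above the rest, and all 3 groups overlapped. Group means were 16.8 ± 4.11 CPM in CS (SD, n = 3), 23.1 ± 10.1 in HFS (n = 3) and 16.1 ± 3.97 in HFR (n = 4), and neighbours in this order did not differ beyond their spread. *Hmox1* was 1.37-fold higher in HFS than in CS (log2 difference 0.45, SE 0.31, 95% confidence interval -0.21 to 1.11), with an edgeR adjusted p of 0.994 after Benjamini-Hochberg correction over 11892 genes. HFR stood at 0.956 times CS (log2 -0.06, interval -0.69 to 0.56, edgeR adjusted p = 0.999) and at 0.699 times HFS (log2 -0.52, SE 0.29, interval -1.13 to 0.10, edgeR adjusted p = 0.989). Without HFS replicate 1 these values were 0.03 for HFS over CS and -0.08 for HFR over HFS, so 1 library carried both differences. The sign of HFR over CS also turned in the 8 matched libraries, where it was 0.09.

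*Hspb1* did not overlap between HFS and HFR libraries, as was the case for 6.84% of all genes tested. Its level was 27.3, 113 and 41.0 CPM in CS, 242, 81.7 and 77.5 CPM in HFS, and 35.3, 52.7, 46.7 and 66.0 CPM in HFR. All 3 HFS libraries lay above all 4 HFR libraries, while CS replicate 2 lay between the HFS libraries and so made CS overlap with HFS, and CS also overlapped with HFR. The order of means was HFS (134 ± 93.5 CPM, SD, n = 3), CS (60.4 ± 45.9, n = 3) and HFR (50.2 ± 12.8, n = 4). Groups that did not overlap were seen in 6.84% of all genes tested between HFR and HFS, in 9.72% between HFS and CS and in 5.47% between HFR and CS, which is the background for this separation.

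The *Hspb1* differences did not pass the test across all genes. HFR stood at 0.377 times HFS (log2 -1.41, SE 0.58, interval -2.74 to -0.07), with an unadjusted p of 0.0408 and an edgeR adjusted p of 0.989. An exact two-sided permutation test over libraries gave p = 0.0571, the smallest that 4 against 3 libraries allow. HFS was 2.20-fold higher than CS (log2 1.14, SE 0.62, interval -0.30 to 2.58, edgeR adjusted p = 0.994), and HFR stood at 0.832 times CS (log2 -0.27, interval -1.62 to 1.09, edgeR adjusted p = 0.995). Both differences depended on single libraries. The log2 value for HFS over CS fell to 0.39 without HFS replicate 1 and was 1.98 without CS replicate 2. Without HFS replicate 1 the value for HFR over HFS moved to -0.65.

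In the 8 matched libraries all HFS values of *Hspb1* (242 and 77.5 CPM) lay above both CS values (27.3 and 41.0 CPM). The log2 difference was then 2.23 (SE 0.53, unadjusted p = 0.00324, edgeR adjusted p = 0.514), HFR over HFS was -1.66 (edgeR adjusted p = 1.0), and HFR over CS changed sign to 0.57 (edgeR adjusted p = 0.886). With 2 against 2 libraries an exact permutation test cannot go below p = 0.3333, and the share of all genes without overlap was not computed for them. A gene was called at an adjusted p under 0.1 in DIO comparisons and under 0.05 between mimic and inhibitor. By edgeR 0 of the 2 genes were called in any DIO comparison, against 0.00841% of all genes tested in HFS over CS, 0.0168% in HFR over CS and 0% in HFR over HFS. At an unadjusted p under 0.05 the count was 0, 0 and 1 of 2, against 532, 509 and 504 of 11892 genes, and DESeq2 also called 0 of 2 in each.

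**Figure D1:**
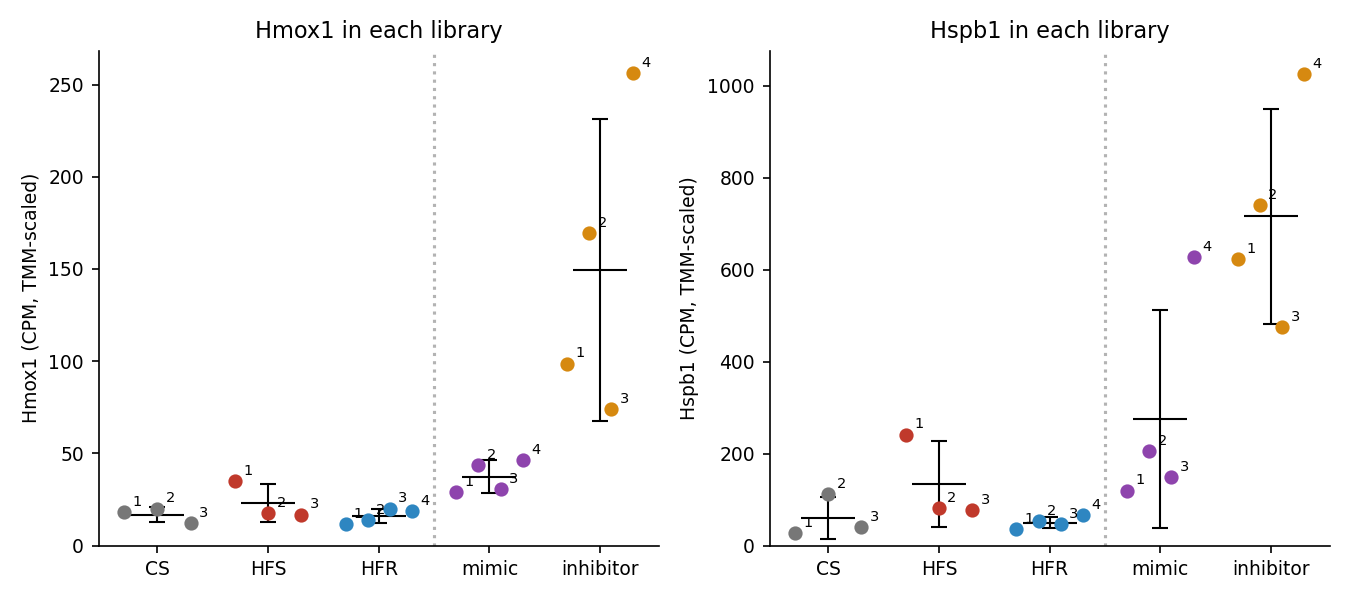
Level of *Hmox1* (left) and *Hspb1* (right) in CPM (vertical axis, TMM-scaled, starting at 0) in each library of the 5 groups, with the replicate number beside each point, the group mean as a bar and the SD as whiskers; the dotted line parts the experiments, which were not normalized together. All 4 mimic libraries lie below all 4 inhibitor libraries for *Hmox1*, and mimic replicate 4 at 626 CPM lies among the inhibitor libraries for *Hspb1*.

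In the miR-211 experiment *Hmox1* was higher in every inhibitor library than in any mimic library. Mimic libraries held 28.9, 43.7, 30.7 and 46.4 CPM and inhibitor libraries 98.6, 169, 73.9 and 256 CPM, and the groups did not overlap (5.92% of all genes tested did not). Means were 37.4 ± 8.89 CPM for the mimic and 149 ± 81.8 CPM for the inhibitor (SD, n = 4 each). The level after mimic was 0.243 times that after inhibitor, or 4.11-fold lower (log2 -2.04, SE 0.40, interval -2.96 to -1.12). This was the gene at rank 80 of 9625 by p, and with an unadjusted p of 0.000857 and an edgeR adjusted p of 0.103 it stayed outside the threshold of 0.05. DESeq2 on the same counts gave log2 -2.01 with an adjusted p of 1.45e-06, and edgeR without inhibitor replicate 3 gave -2.26 with an adjusted p of 0.0277, so the call, but not the direction, turned on the tool and on 1 library. An exact two-sided permutation test over libraries gave p = 0.0286, the smallest that 4 against 4 allow.

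*Hspb1* followed the same direction with 1 exception. Mimic libraries held 119, 205, 150 and 626 CPM and inhibitor libraries 622, 740, 475 and 1025 CPM. Mimic replicate 4 lay within the inhibitor range, and the other 3 mimic libraries lay below all 4 inhibitor libraries. Means were 275 ± 237 CPM for the mimic and 716 ± 233 CPM for the inhibitor (SD, n = 4 each), and the mimic stood at 0.378 times the inhibitor (log2 -1.40, SE 0.58, interval -2.78 to -0.02, unadjusted p = 0.0471, edgeR adjusted p = 0.499). An exact permutation test over libraries gave p = 0.0857. Without mimic replicate 4 the log2 difference was -2.19 (SE 0.30, edgeR adjusted p = 0.0573). By edgeR 0 of the 2 genes were called between mimic and inhibitor, against 0.447% of all genes tested (1 gene higher and 42 lower in mimic), while both had an unadjusted p under 0.05, as did 953 of 9625 genes, and DESeq2 called 1 of 2. In such bulk tissue, fewer cells that express a gene and less RNA per cell cannot be told apart.

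**Figure D2:**
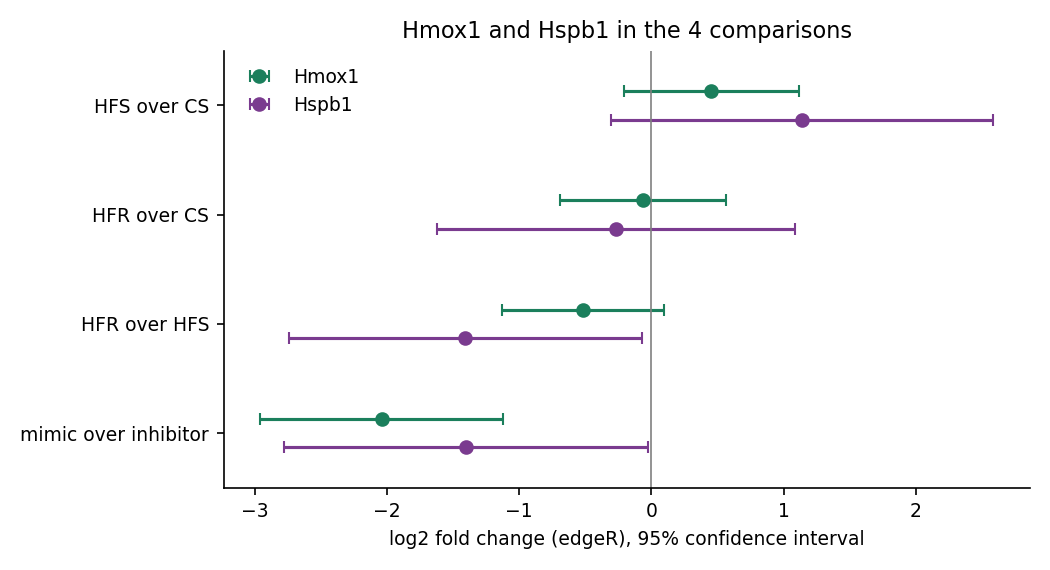
Log2 fold change (horizontal axis) of *Hmox1* and *Hspb1* in the 4 comparisons (vertical axis), with the 95% confidence interval of the edgeR fit as whiskers; the first group named is the numerator. The *Hmox1* interval for mimic over inhibitor (-2.96 to -1.12) lies farthest from 0, and all HFS over CS and HFR over CS intervals span 0.

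Levels of both genes were higher in the miR-211 libraries than in the DIO libraries. The mean over libraries was 93.4 CPM in 8 against 18.4 CPM in 10 libraries for *Hmox1*, and 495 against 78.3 CPM for *Hspb1*. Even the mimic libraries (lowest *Hmox1* value 28.9 CPM, lowest *Hspb1* value 119 CPM) stood above the CS libraries, which also came from chow-fed rats (highest values 20.1 and 113 CPM). The experiments differed in cannulation, fasting, age and RNA kit, and possibly in the collapsing of molecular identifiers, and these cannot be told apart. For that reason no test was run across them.

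Animals of the same group differed more in these genes than in most others. The within-group SD of log2 CPM in the DIO experiment was 0.43 for *Hmox1* and 0.79 for *Hspb1*, where the median gene had 0.31, and in the miR-211 experiment it was 0.61 and 0.82 against 0.26. Among genes within 2-fold of the same mean level, 78.5% had a smaller SD than *Hmox1* and 99.1% a smaller SD than *Hspb1* in the DIO experiment, and 96.0% and 98.5% in the miR-211 experiment. In the 8 matched DIO libraries the SD was 0.46 for *Hmox1* and 0.62 for *Hspb1* (81.6% and 97.8% of genes of like level below). Single libraries carried part of it: without HFS replicate 1 the SD of *Hmox1* was 0.33, close to the median gene, and without mimic replicate 4 that of *Hspb1* was 0.44 (94.8% of genes of like level below). The biological coefficient of variation that the fit assigned was 0.513 for *Hspb1* and 0.269 for *Hmox1* in the DIO experiment (0.234 for all genes in common), and 0.545 and 0.372 in the miR-211 experiment (0.205 in common).

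Both genes tended to be high in the same libraries. In the miR-211 experiment the order of the 4 mimic libraries was the same for both genes (replicates 4, 2, 3 and 1 from high to low). So was the order of the 4 inhibitor libraries (4, 2, 1 and 3). Replicates 4 and 2 led in both groups, and an effect of replicate number shared by the groups was not tested. *Hmox1* split these libraries into separate groups of 4, so a correlation over all 8 also holds the difference between groups and is not read as co-movement. After each group was centred on its mean, Pearson's r was 0.67 (exact permutation within groups, p = 0.00347, adjusted over 8 relations 0.00694). Spearman's rho was 0.74 (permutation p = 0.00347, adjusted 0.00694). Both p-values are the smallest that the 576 pairings within groups allow. How many other gene pairs reach such a centred r was not computed.

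In the DIO experiment the link rested on a few libraries. Pearson's r between log2 CPM values was 0.77 over 10 libraries (permutation p = 0.0202, adjusted over the same 8 relations 0.0323), and Spearman's rho was 0.60 (permutation p = 0.0733, adjusted 0.0977). HFS replicate 1 was highest in both genes and HFR replicate 1 lowest in *Hmox1*, and without these, the 2 libraries farthest from the *Hmox1* median, r was 0.33 (exact permutation p = 0.407). Centred on group means r was 0.69 (exact permutation p = 0.116), and in the 8 matched libraries it was 0.78 (exact permutation p = 0.0701). CS replicate 1, with 18.2 CPM of *Hmox1* and the lowest *Hspb1* level of all (27.3 CPM), lay apart, and leaving it out raised r to 0.90.

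**Figure D3:**
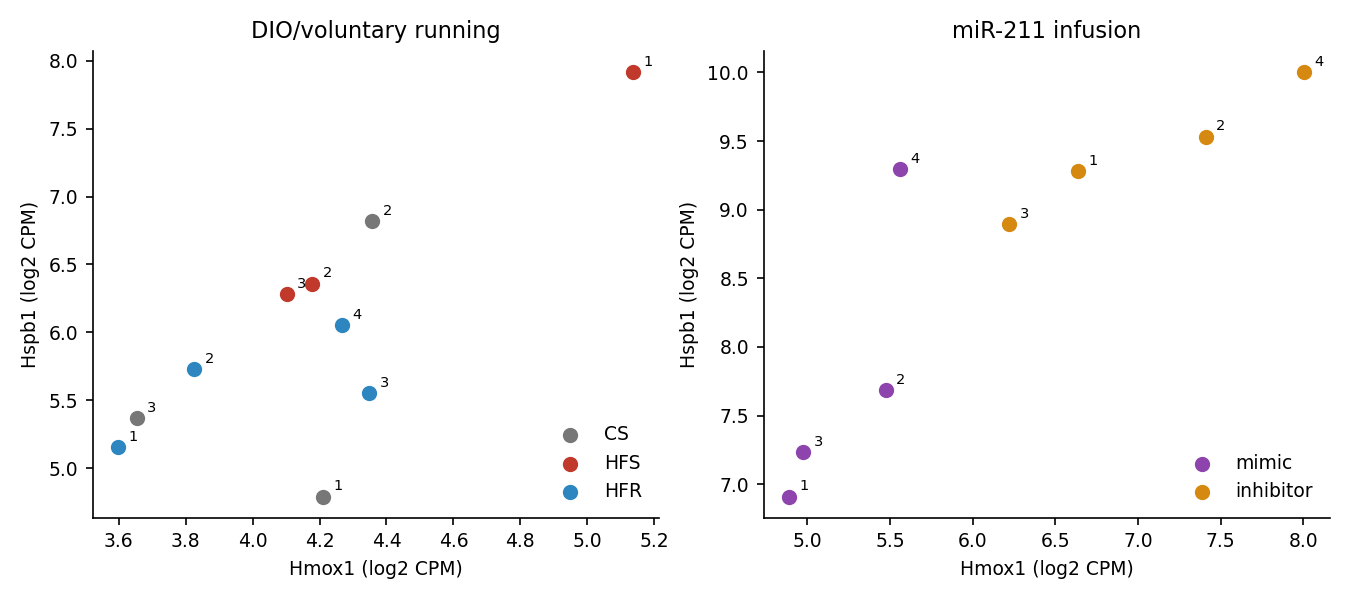
*Hspb1* (vertical axis) against *Hmox1* (horizontal axis), both in log2 CPM, for the 10 DIO/voluntary running libraries (left) and the 8 miR-211 libraries (right), coloured by group, with replicate numbers. Within the mimic and within the inhibitor libraries both genes put the replicates in the same order, and on the left HFS replicate 1 lies far from the other libraries at the top.

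The ratio of *Hspb1* to *Hmox1* within a library, which does not depend on library size, was used to ask whether the genes moved alike. It was 1.51, 5.60 and 3.35 in CS, 6.94, 4.60 and 4.61 in HFS, and 3.00, 3.81, 2.33 and 3.5 in HFR. The HFR ratios all lay below the HFS ratios (log2 difference -0.77, exact permutation p = 0.0571, the smallest that 4 against 3 libraries allow), so relative to *Hmox1*, *Hspb1* was higher in every HFS library than in any HFR library. *Hspb1* by itself also did not overlap between these groups, as was the case for 6.84% of all genes tested, while *Hmox1* did. How many other gene pairs have ratios that separate in this way, in all or in the matched libraries, was not computed. For HFS over CS the log2 difference of the ratio was 0.79 (exact permutation p = 0.3), but it was 0.29 without CS replicate 1 and 1.23 without CS replicate 2. In the 8 matched libraries it was 1.33, with groups that did not overlap (exact permutation p = 0.3333, the smallest that 2 against 2 allow), and HFR over HFS was -0.87 (exact permutation p = 0.1333, the smallest for 4 against 2). In the miR-211 experiment the ratio was 4.13, 4.69, 4.87 and 13.5 in mimic libraries and 6.31, 4.37, 6.43 and 4.00 in inhibitor libraries, with a log2 difference of 0.20 (exact permutation p = 0.7714). Apart from mimic replicate 4, then, the ratio stayed between 4.00 and 6.43 in these libraries, while *Hmox1* itself ran from 28.9 to 256 CPM.

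Other genes ran closer to each of the pair than its partner did. Over the 10 DIO libraries *Hspb1* took rank 96 among 8036 genes ordered by their correlation with *Hmox1*, and *Hmox1* took rank 174 for *Hspb1*. Over the 8 miR-211 libraries these ranks were 91 and 82 among 8094 genes. The genes most like *Hmox1* there were *Cxcl3* (r = 0.99), which encodes a neutrophil-attracting chemokine, *Ptx3* (0.97), which encodes an innate immune pattern receptor, the immediate early genes *Fos* (0.97) and *Junb* (0.96), and the phosphatase gene *Ptpn1* (0.96). Of the 5 genes most like *Hspb1* there, only *Pmp22* (r = 0.96), which encodes a myelin protein, had a symbol. In the DIO libraries the named genes among the top 5 were *Nt5dc2* for *Hmox1* (r = 0.91), and *Rras*, which encodes a small GTPase (r = 0.92), and *Fbxo2*, which encodes a sugar-binding subunit of a ubiquitin ligase (r = 0.92), for *Hspb1*. These correlations, the ranks included, hold the group differences and are a description, and most named genes among them are ones the study listed.

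Genes of the same defences were followed as lists, with *Hmox1* itself in the heme, iron and metal list and *Hspb1* itself among the chaperones. A symbol could be given only to genes in the study's lists of changed genes. The lists are therefore not independent evidence of direction or of the share of genes called. All acute stress genes except *Atf3*, and all tested heme, iron and metal genes except *Tf*, stood in the study's miR-211 list. Of the genes tested between mimic and inhibitor, only *Maff* and *Sod2* among the antioxidant genes and *Cryab* and *Bag3* among the chaperones did. Differences between the lists after mimic are therefore not read as a result. Many classical members (*Nqo1*, *Gclc*, *Hspa1a* and *Hsp90aa1* among them) were not used here. Across all genes tested the median log2 difference lay between -0.01 and 0.01 in the 4 comparisons. The share of all genes called was 0.447% between mimic and inhibitor, where 953 of 9625 genes had an unadjusted p under 0.05, and in HFS over CS, HFR over CS and HFR over HFS 532, 509 and 504 of 11892 genes did. Counts over a list are given with these shares as background. An excess over a share is not read as a result, because of how the list genes were chosen.

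Heme, iron and metal genes were represented by 8 of 18 listed genes. After mimic all 8 had values below the inhibitor, with a median log2 difference of -2.0, and 1 was called. That was *Mt1-ps3*, annotated as a metallothionein pseudogene and also listed as *Mt1*, at 11.1 ± 4.35 against 51.2 ± 27.0 CPM (SD, n = 4 each, log2 -2.29, SE 0.39, edgeR adjusted p = 0.0383), a count that related metallothionein copies may share. In HFS over CS 7 of 8 had values above CS (median 0.61), and in HFR over HFS 7 of 8 had values below HFS (median -0.47). In HFR over CS 4 lay on each side (median -0.02). By edgeR 0 were called in each, and 1, 1 and 0 had an unadjusted p under 0.05. Without *Hmox1* all 7 others lay below the inhibitor after mimic (median -1.96). In HFS over CS 6 of these 7 lay above CS (median 0.61), and in HFR over HFS 6 of 7 below HFS (median -0.43). In HFR over CS 4 lay above and 3 below (median 0.02).

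Antioxidant and electrophile response genes were represented by 12 tested genes of 27 in the DIO experiment and by 11 in the miR-211 experiment. *Maff*, a small Maf protein that pairs with Nrf2, was lower after mimic than after inhibitor (9.67 ± 2.88 against 34.6 ± 14.7 CPM, SD, n = 4 each, log2 -1.85, SE 0.33, edgeR adjusted p = 0.038). It was the 1 gene called. The other 10 lay on both sides of 0, and the median of the list was 0. In HFS over CS 11 of 12 had values above CS (median 0.41), in HFR over CS also 11 of 12 (median 0.20), and in HFR over HFS 10 of 12 had values below HFS (median -0.17), again with 0 called by edgeR and 3, 0 and 1 at an unadjusted p under 0.05.

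Chaperones and heat shock genes were represented by 7 of 22. *Cryab*, a small heat shock protein like *Hspb1* and abundant in astrocytes and oligodendrocytes, was lower after mimic than after inhibitor (log2 -0.89, SE 0.15, edgeR adjusted p = 0.0361). It was the 1 gene called of 6 tested, 5 of which had values below the inhibitor (median -0.50). Without *Hspb1* 4 of 5 did (median -0.16). In HFS over CS *Cryab* stood 0.86 above CS on the log2 scale (SE 0.22, edgeR adjusted p = 0.975), beside 1.14 for *Hspb1*. The 7 genes split into 4 above and 3 below CS (median 0.26), and in HFR over CS into 2 above and 5 below (median -0.18). In HFR over HFS 6 of 7 lay below HFS (median -0.33). By edgeR 0 were called in each, and 1, 2 and 1 had an unadjusted p under 0.05. Without *Hspb1*, HFS over CS had 3 above and 3 below (median 0.09), and HFR over CS 2 above and 4 below (median -0.13). HFR over HFS then had 5 of 6 below HFS (median -0.25).

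Acute stress response genes, mostly immediate early genes and their targets, were all 18 tested. After mimic all 18 had values below the inhibitor (median log2 -1.52), and 9 were called. These were the growth arrest genes *Gadd45a*, *Gadd45b* and *Gadd45g*, the transcription factors *Fos*, *Jun* and *Klf4*, the kinase gene *Sgk1*, the survival gene *Ier3* and *Zfp36*, whose product degrades inflammatory mRNAs, with log2 values from -0.85 for *Jun* to -1.86 for *Zfp36* (edgeR adjusted p = 0.0377 and 0.0298). In HFS over CS 16 of 18 had values above CS (median 0.35), in HFR over CS 14 of 18 (median 0.19), and in HFR over HFS 14 of 18 had values below HFS (median -0.16), with 0 called by edgeR in each and 6, 4 and 0 at an unadjusted p under 0.05. *Hmox1*, at -2.04 after mimic, lay below each of these 18 values.

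The number of list genes called after mimic hung on the tool and on single libraries. DESeq2 called 6 of 8 heme, iron and metal genes, 2 of 11 antioxidant genes, 2 of 6 chaperones and 18 of 18 acute stress genes. By edgeR without inhibitor replicate 4 none of the 4 lists had a called gene (1 gene called in all), and without mimic replicate 4 only 1 acute stress gene was called (13 in all). Antioxidant genes, with 5 above and 6 below the inhibitor by edgeR, had 6 above and 5 below by DESeq2. In the DESeq2 fit and both reduced fits all 8 heme, iron and metal genes and all 18 acute stress genes still had values below the inhibitor, with medians of -1.97 and -1.52 by DESeq2, of -2.03 and -1.38 without inhibitor replicate 4 and of -2.22 and -1.54 without mimic replicate 4.

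In the 8 matched DIO libraries edgeR again called 0 genes of each list, but several medians moved. For HFS over CS they were 0.87 for heme, iron and metal genes (7 of 8 above CS), 0.68 for antioxidant genes (11 of 12), 0.78 for chaperones (5 of 7) and 0.51 for acute stress genes (16 of 18). For HFR over CS they were 0.31 (7 of 8 above CS), 0.38 (11 of 12), 0.32 (4 of 7) and 0.31 (13 of 18), so that the heme, iron and metal genes and the chaperones lost the even or downward split of the full fit. HFR over HFS kept its direction, with medians of -0.60 (7 of 8 below HFS), -0.25 (11 of 12), -0.40 (6 of 7) and -0.18 (16 of 18).

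**Figure D4:**
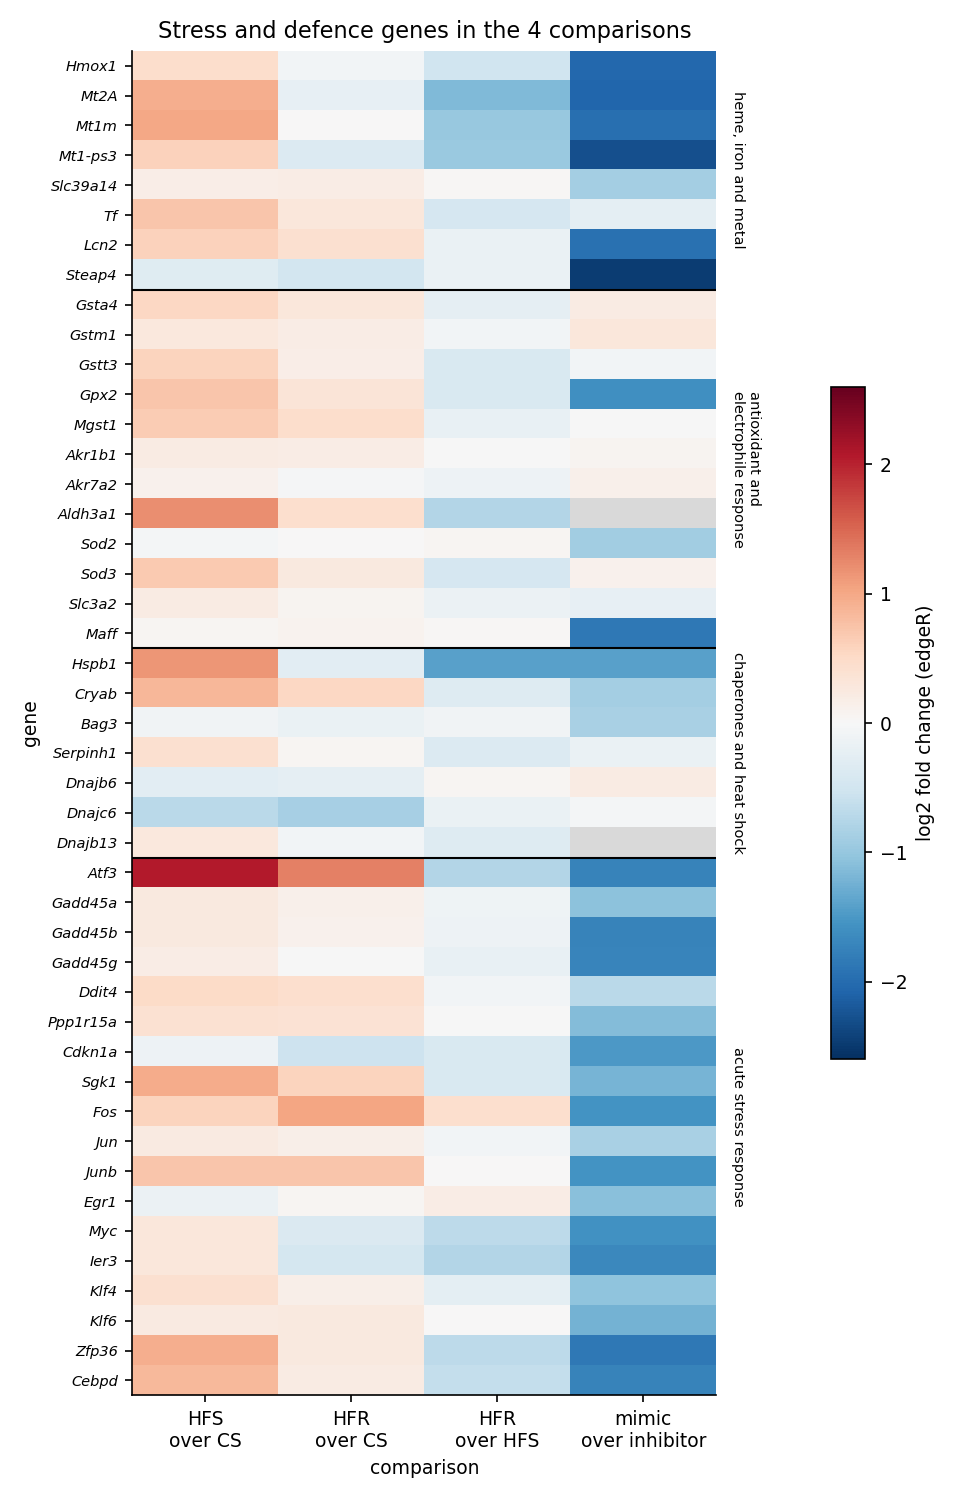
Log2 fold change (colour, edgeR) of the tested genes of the 4 lists (rows, with *Hmox1* first in the heme, iron and metal list and *Hspb1* first among the chaperones) in the 4 comparisons (columns); grey marks genes not tested. The mimic over inhibitor column is blue for all 8 heme, iron and metal genes and all 18 acute stress genes, and mixed for antioxidant genes and chaperones. Most heme, iron and metal and acute stress genes, but few antioxidant genes and chaperones, came from the study's miR-211 list.

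Some markers of other cell types followed *Hspb1* across libraries. In the DIO experiment the 4 libraries highest in *Hspb1* (all HFS libraries and CS replicate 2) were also the 4 highest in the summed level of 10 microglia and macrophage markers and the 4 lowest in that of 8 neuronal markers. The microglia and macrophage sum was 402 to 670 CPM in CS, 607 to 774 CPM in HFS and 381 to 602 CPM in HFR, and the neuronal sum 3247 to 5174 CPM, 3435 to 3879 CPM and 4167 to 4911 CPM. No marker of either list was at 0 in any library. CS replicate 2 held 656 CPM of 8 smooth muscle, fibroblast and meninges markers, where the other CS libraries held 197 and 218 CPM, HFS 439 to 590 CPM and HFR 186 to 469 CPM. Among the 4 libraries highest in *Hmox1* only 2 were among the 4 highest in microglia and macrophage markers, and 2 among the 4 lowest in neuronal markers. For astrocyte markers, and for smooth muscle, fibroblast and meninges markers, 3 of the 4 were among the 4 highest, as was also the case for *Hspb1*. The part of these markers in the values of both genes was not tested, and all symbols were taken from the study's own gene lists.

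In the miR-211 experiment the 4 libraries highest in *Hspb1* (inhibitor replicates 1, 2 and 4 and mimic replicate 4) were the 4 lowest in neuronal markers (2969 to 4242 CPM in inhibitor and 3596 to 5090 CPM in mimic libraries). Only 3 of them were among the 4 highest in microglia and macrophage markers, and inhibitor replicate 1, at 747 CPM, was among the 4 lowest. The microglia and macrophage sum ran from 508 to 836 CPM in mimic and from 747 to 2217 CPM in inhibitor libraries. All 10 markers had values below the inhibitor after mimic (median log2 -0.81, 0 called by edgeR, 6 at an unadjusted p under 0.05, as 953 of 9625 genes had). These 6 were the markers in the study's miR-211 list, so their direction and small p are not independent of that choice. The others (*C1qa*, *C1qb*, *C1qc* and *Cd74*), listed only for the DIO experiment, had unadjusted edgeR p-values of 0.0772 to 0.326. The sum of 5 neutrophil markers, all from the study's miR-211 list, was 8.1 to 17.6 CPM in mimic and 16.9 to 217 CPM in inhibitor libraries. Inhibitor replicate 1 held the 16.9 CPM, within the mimic range, and 98.6 CPM of *Hmox1*. In the DIO libraries the neutrophil sum was at most 2.9 CPM, with up to 4 of 5 markers at 0. Their part in the *Hmox1* and *Hspb1* differences was not tested.

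**Figure D5:**
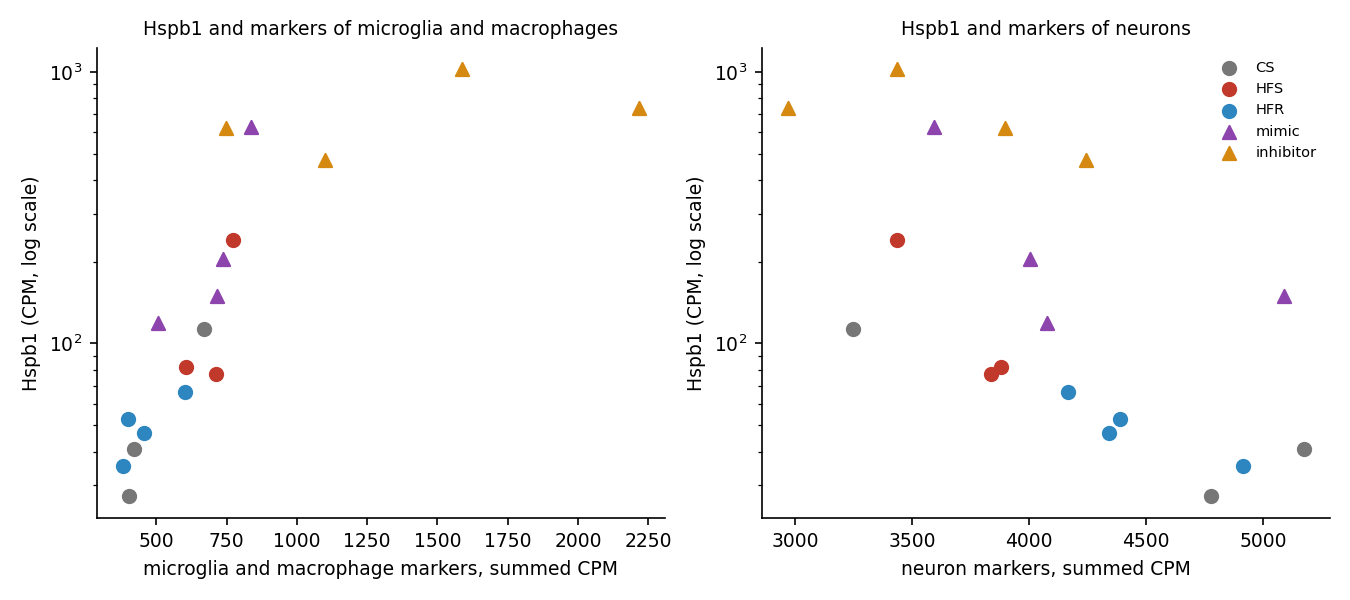
*Hspb1* in CPM (vertical axis, log scale) against the summed CPM of 10 microglia and macrophage markers (left) and of 8 neuronal markers (right) in each library, coloured by group, with circles for the DIO and triangles for the miR-211 experiment. In each experiment the 4 libraries highest in *Hspb1* are the 4 lowest in neuronal markers.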

How the data were processed

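The authors made bulk MARS-seq libraries, which tag transcript ends, trimmed adapters with Cutadapt, aligned reads to Rnor6 with STAR 2.7.9a and counted them per Ensembl gene with HTSeq 0.13.5. The files as deposited give raw counts for 32883 genes, in whole numbers and not normalized. The miR-211 files are corrected for molecular identifiers, and for the DIO files this is not stated. Reads outside genes (22.4% to 26.3% of the DIO libraries) or aligned to several places (17.2% to 20.6%) were left out. No pair of libraries held identical counts, nothing in the labels besides the replicate number ties a library to an animal, and p-values measure the spread between these libraries. Intervals for counting cover counting error only. The labels give the organism as Rattus rattus, whereas Rnor6 and Wistar belong to the Norway rat. No sequence or coordinate of that build was used here.

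Groups came from the sample labels. Each experiment was fitted apart in edgeR 4.0.16 (R 4.3.3, limma 3.58.1) with filterByExpr, TMM factors (0.976 to 1.039), quasi-likelihood tests with robust dispersion and Benjamini-Hochberg adjustment over 11892 genes in 10 DIO libraries and 9625 genes in 8 miR-211 libraries. CPM carry TMM factors, and log2 CPM a prior count of 2. Exact permutation tests were two-sided (scipy 1.17.1), and the DIO correlation drew 100000 pairings. DESeq2 1.42.0, other normalizations and filters, the replicate block, the 8 matched libraries and each library left out in turn were alternatives. A library matched an animal where the interquartile range of log2 ratios to that animal's values was under 0.01. Tests were tried on simulated counts first.

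The members and gene lists were chosen with earlier results of these data known. List genes are named where called in any comparison. The genes most like a member are the 5 with the largest Pearson r at a mean of at least 10 CPM. Symbols came from the study's lists (607 genes paired), and the motif search in promoters was not run.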

Additional observations from a re-analysis of the deposited data

Results flagged for a closer look

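Mimic replicate 4 stood apart in *Hspb1*. Its level was 626 CPM where the other 3 mimic libraries held 119 to 205 CPM, so that the gap to the nearest library made up 0.832 of the range of the group, just above the critical value for 4 libraries. Its ratio of *Hspb1* to *Hmox1* was 13.5, where the other 3 mimic libraries had 4.13 to 4.87 and the gap made up 0.921 of the range. In *Hmox1* the same library, at 46.4 CPM, was close to mimic replicate 2 at 43.7 CPM. It was the shallowest library, with 1275263 counts on genes, of which 797 fell on *Hspb1* and 59 on *Hmox1*. Its astrocyte marker sum of 6036 CPM and its microglia and macrophage sum of 836 CPM were the highest among mimic libraries. Their part in the *Hspb1* value was not tested. There were 9 such checks (3 quantities in the 3 groups of 4 libraries), and chance gives about 1 in 20.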

How the results depend on the processing

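*Hspb1* kept its direction and stayed uncalled under every alternative in HFS over CS, HFR over HFS and mimic over inhibitor, as did *Hmox1* in the first 2 of these. The call of *Hmox1* between mimic and inhibitor was gained with DESeq2 (log2 -2.01), with the replicate block (-1.87) and without inhibitor replicate 3 (-2.26), and its adjusted p ran from 1.45e-06 to 0.227 over 7 alternatives. HFR over CS turned positive in the 8 matched libraries, for *Hmox1* (0.094) and *Hspb1* (0.57). The DIO correlation lost its threshold without the 2 farthest libraries (0.33), centred on group means (0.69) and in the 8 matched libraries (0.78). The cause was not tested.

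Leaving out 1 library at a time gave, for *Hmox1*, log2 values of 0.03 to 0.64 in HFS over CS, -0.24 to 0.10 in HFR over CS (4 of 10 changed sign), -0.70 to -0.08 in HFR over HFS and -2.26 to -1.63 in mimic over inhibitor. For *Hspb1* they were 0.39 to 1.98, -0.60 to 0.57 (1 of 10 changed sign, without CS replicate 2), -1.68 to -0.65 and -2.19 to -1.15. The log2 ratio of *Hspb1* to *Hmox1* ran from 0.29 to 1.23 in HFS over CS, from -0.48 to 0.47 in HFR over CS, from -0.87 to -0.57 in HFR over HFS and from -0.20 to 0.37 in mimic over inhibitor, and the DIO correlation from 0.47 (without HFS replicate 1) to 0.90. The miR-211 correlation over all 8 libraries, which includes the group difference, ran from 0.84 to 0.97. Without both libraries numbered 4, a fit added after seeing the data, *Hmox1* was at -1.74 (edgeR adjusted p = 0.199) and *Hspb1* at -1.96 (0.0881).

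Replicate numbers are shared between groups. Over all genes, same-numbered libraries did not deviate together (correlations of -0.12 to 0.15 in the DIO and 0.05 to 0.21 in the miR-211 experiment). For that reason the numbers were not treated as pairs. For *Hmox1* and *Hspb1* themselves, replicates 4 and 2 were the highest in both mimic and inhibitor libraries. An effect of replicate number shared by the groups in these genes was not tested. With the replicate block *Hmox1* was at log2 -1.87 between mimic and inhibitor (edgeR adjusted p = 0.00465) and *Hspb1* at -1.65 (0.153). The SE was then 0.185 for *Hmox1* (0.401 in the main fit) and 0.292 for *Hspb1* (0.58 in the main fit). The block changed no other call of these genes.

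Counts of called genes moved more than the members. HFS over CS had 1 called gene, 4 with DESeq2 and 0 at a threshold of 0.05, with the block or with only the 2 groups fitted. HFR over CS had 2, 18 with DESeq2, 8 without a filter on low counts and 0 with the block. HFR over HFS had 0, 1 with DESeq2 and 2 with the block. Mimic over inhibitor had 43, 176 with DESeq2, 79 at a threshold of 0.1, 125 without a filter and 0 to 111 with 1 library left out. Depth limits *Hmox1* most, with 57 counts in the lowest library.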

Other observations

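Other marker lists gave values beside *Hmox1* and *Hspb1* as well. Oligodendrocyte markers (*Mbp*, *Klk6* and *Tf*) summed to 8370 to 13232 CPM in CS, 13085 to 19965 CPM in HFS and 11070 to 15545 CPM in HFR. All 3 genes lay above CS in HFS (median log2 0.73, 0 called by edgeR, 3 at an unadjusted p under 0.05, as 532 of 11892 genes had). All 3 came from the study's list of genes changed in the DIO experiment, so their direction and small p are not independent of that choice. Astrocyte markers (*Gfap*, *Gjb6*, *Clu* and *Gpr37l1*) summed to 3481 to 5617 CPM in CS, 4490 to 6910 CPM in HFS and 3397 to 6559 CPM in HFR, and the highest HFS value belonged to HFS replicate 1, the library highest in both members. Endothelial markers varied less in the DIO experiment (317 to 427 CPM over all 10 libraries) and ran from 258 to 309 CPM in mimic and from 300 to 458 CPM in inhibitor libraries. There edgeR called 1 of 6 higher and 1 lower after mimic, against 0.447% of all genes tested. All 6 came from the study's miR-211 list, so these calls are not independent of that choice. *Sim1*, a marker of the neighbouring paraventricular nucleus, was at 5.2 to 26.9 CPM in all 18 libraries. The 26.9 CPM belonged to mimic replicate 3, which also held the lowest arcuate marker sum (81.0 CPM). Without that library *Hmox1* was at log2 -1.96 and *Hspb1* at -1.20 between mimic and inhibitor. The part of punch content in these values was not tested.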
